A study of Mus musculus with 9 samples.

Results

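The 44 cell division genes described here are mouse genes of the cell cycle, listed by name for their known roles: 21 act in mitosis and the spindle, 8 are cyclins and kinases of the G1 and S phases, 9 serve DNA replication and nucleotide supply, 3 are transcription factors of the cycle and 3 are inhibitors. They were read from a count table of 46078 genes, in which all 44 were found. Each RNA-seq library came from the whole ovary tissue of 1 mouse of the strain C57BL/6J, labelled as untreated, and there were 5 WT mice and 4 ERβKO mice. In the ERβKO mice exon 3 of the ERβ gene (Esr2) was deleted in the germline by crossing floxed mice with a Rosa26-Cre deleter line, so that every cell type of the mouse lacked it, and the WT mice were offspring without Cre. The study states only a wide range of ages in weeks over all its mice, and the age of each of these mice is not given. Collection was not timed to a stage of the estrous cycle. The treatment text shared by all labels also describes diets and injections of a ligand or vehicle, and does not say which diet each of these mice had.

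A cell enters the cycle when D cyclins bind the kinases Cdk4 and Cdk6, which releases the E2F factors that switch on the genes of DNA replication. Later, B cyclins and Cdk1 drive mitosis, and the genes of mitosis are switched on together by a complex that contains Mybl2 and Foxm1. In the ovary most dividing cells are granulosa cells of growing follicles. When granulosa cells luteinise after ovulation they stop dividing, and the inhibitor Cdkn1b is known to accumulate in them. A library of a whole ovary mixes all cell types, so that fewer cells of a type and less RNA per cell cannot be told apart.

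The promoters of a few members are shown because the genes of mitosis and of replication are known for different short motifs near their starts. In the printed runs, capitals mark 3 kinds of letters, each read on both strands: TTTGAA, the core of the cell cycle genes homology region, CCAAT, and the E2F letters TTTCCCGC, TTTCGCGC, TTTGCCGC or TTTGGCGC. The sequences are the bases before the RefSeq start on build GRCm38.p6, printed 5′ to 3′ along the gene. Cdkn1b, the only member that met the criteria for a differentially expressed gene, is shown with 250 bases at chr6:134920151-134920400 on the plus strand.
Cdkn1b: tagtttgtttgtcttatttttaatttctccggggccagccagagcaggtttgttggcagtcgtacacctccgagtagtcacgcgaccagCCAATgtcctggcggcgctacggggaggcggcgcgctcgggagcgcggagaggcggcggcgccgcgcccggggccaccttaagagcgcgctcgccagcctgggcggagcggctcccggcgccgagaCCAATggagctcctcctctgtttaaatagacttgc
This stretch held CCAAT 161 and 35 bases before the start and neither of the other motifs.

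Top2a (chr11:99024190-99024339, minus strand), Mki67 (chr7:135716380-135716529, minus strand) and Kif11 (chr19:37376232-37376381, plus strand) are the 3 mitotic genes with a single RefSeq window, no annotated exon of their own in the 150 bases before the start, and both TTTGAA and CCAAT there.
Top2a: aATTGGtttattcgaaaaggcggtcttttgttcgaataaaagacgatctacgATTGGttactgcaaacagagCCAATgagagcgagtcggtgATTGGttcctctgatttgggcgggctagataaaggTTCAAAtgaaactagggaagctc
Mki67: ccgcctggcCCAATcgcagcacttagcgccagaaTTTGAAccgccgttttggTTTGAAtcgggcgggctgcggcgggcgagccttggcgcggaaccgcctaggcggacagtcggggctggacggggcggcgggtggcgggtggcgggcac
Kif11: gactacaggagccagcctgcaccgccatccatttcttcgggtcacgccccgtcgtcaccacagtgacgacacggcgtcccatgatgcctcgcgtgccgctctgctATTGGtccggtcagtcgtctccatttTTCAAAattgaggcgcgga
In Top2a and Kif11 the match to TTTGAA lay 23 and 19 bases before the start, with a CCAAT letter run further out. In Mki67 the matches to TTTGAA lay further from the start, at 116 and 98 bases, with CCAAT at 141 bases.

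Mcm6 (chr1:128359706-128359855, minus strand) and Mcm5 (chr8:75109359-75109508, plus strand), subunits of the helicase that opens DNA for replication, are the 2 replication genes that held an E2F motif under the same conditions.
Mcm6: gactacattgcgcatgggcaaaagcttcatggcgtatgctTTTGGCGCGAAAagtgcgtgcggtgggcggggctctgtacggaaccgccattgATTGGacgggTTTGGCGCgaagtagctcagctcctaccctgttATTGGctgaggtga
Mcm5: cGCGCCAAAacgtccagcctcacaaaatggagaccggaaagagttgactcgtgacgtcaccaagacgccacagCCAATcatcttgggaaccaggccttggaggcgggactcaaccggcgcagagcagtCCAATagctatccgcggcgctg
Of the 3 E2F matches of Mcm6, the outer pair, which begins 110 bases before the start, overlap each other.

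RefSeq promoter windows of 300 bases, 250 before and 50 after the start, were held for 35 of the 44 members and for 27025 gene symbols in all, and 3 members had 2 windows. TTTGAA was present in 13 of 18 mitotic genes (72.2%), 1 of 8 replication genes (12.5%) and 20.2% of all symbols. CCAAT was present in 16 of the 18 mitotic genes, 7 of the 8 replication genes and 41.1% of all symbols. An E2F motif was present in 4 of the 8 replication genes, 1 of the 18 mitotic genes and 2.60% of all symbols. These matches describe letters in the windows and not binding.

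Between 12353740 and 16519975 fragments were counted in a WT library and between 13088728 and 18717510 in an ERβKO library. The counts of all 9 libraries were scaled by TMM and compared with edgeR's quasi-likelihood test over 16722 genes, those left by a filter on low counts, and p-values were adjusted over all of them by the Benjamini-Hochberg method. All 44 members passed the filter, with at least 32 fragments in every library. A gene was called differentially expressed (a DEG) where its adjusted p was under 0.05, its log2 fold change exceeded 0.4 in size, and the mean FPKM of 1 or both genotypes was over 1. These are the criteria of the study, which applied them to a DESeq2 test and not to edgeR. With DESeq2, 800 genes met them here, against 287 with edgeR. FPKM, which are fragments scaled to gene length and library size, are the deposited values, means are given ± SD, and log2 fold changes are ERβKO over WT. Esr2 itself was counted over its whole length, which includes the exons left in the deleted allele, and its log2 fold change of -0.023 (standard error 0.24) did not separate the genotypes.

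Among the members, 1 inhibitor of the cycle fell in ERβKO ovaries, while none of the mitotic or replication genes passed the test. WT replicates 2 and 3 stood at the low and the high end of most genes of mitosis, and results without them are given with those genes. Of the 44 members 1, Cdkn1b, met the criteria for DEGs, against 1.72% (287) of all genes tested. At an unadjusted p under 0.05 there were 3 members (6.82%), Cdkn1b, Ccnd2 and Cdk6, against 19.8% of all genes tested. The levels of the genotypes did not overlap for 2 members, Cdkn1b and Cdk6, against 7.96% of all genes tested. The share of members past each of these limits was thus near or below the background. The median log2 fold change of the 44 members was 0.013, and -0.00089 for all genes tested.

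**Figure D1:**
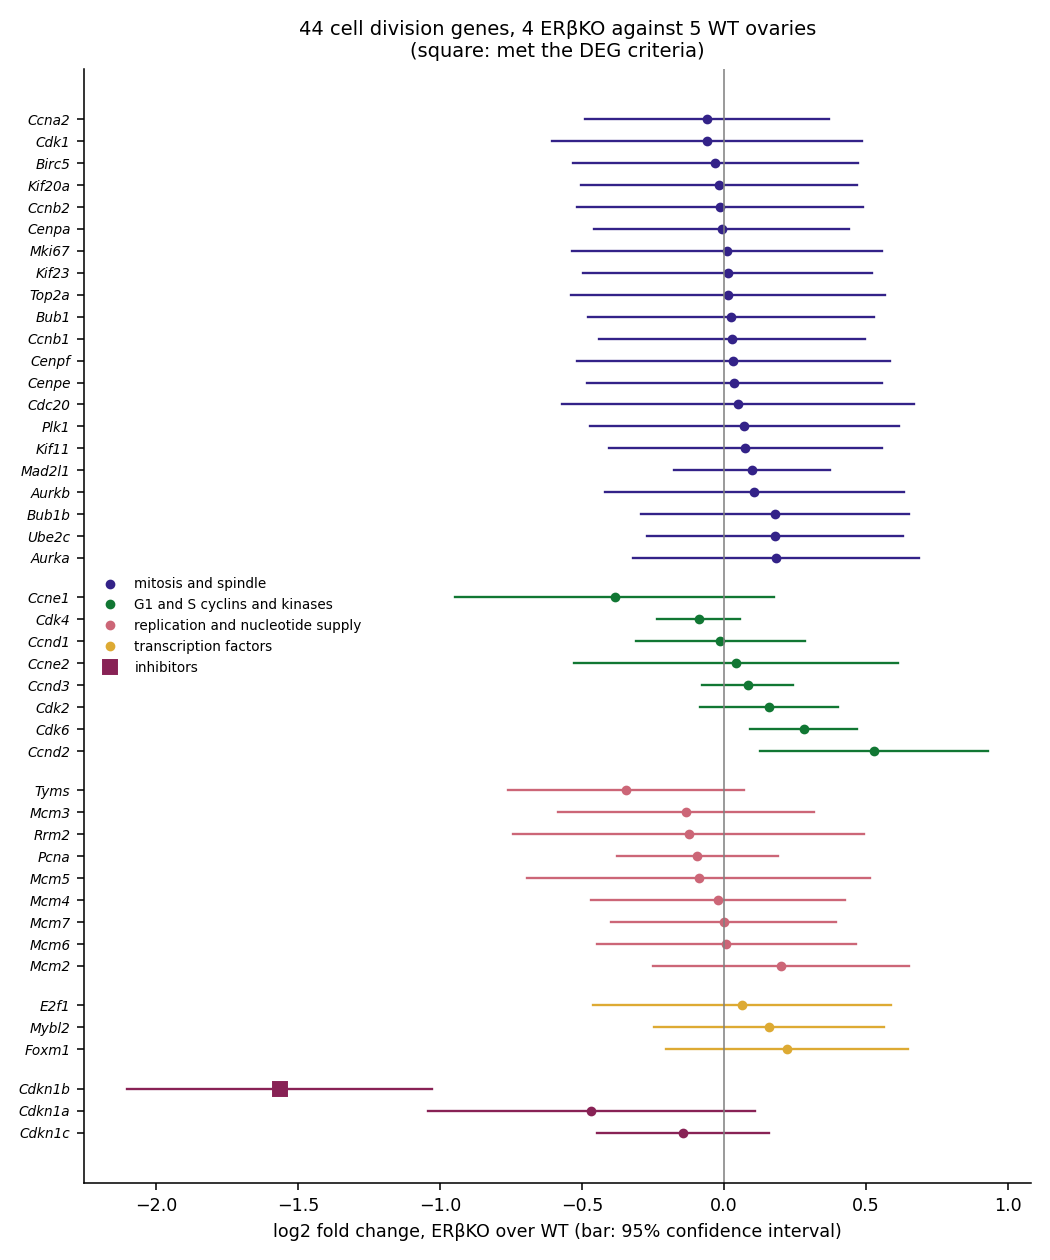
Log2 fold change of each of the 44 cell division genes, ERβKO (n = 4) over WT (n = 5), with its 95% confidence interval from edgeR, coloured by role. Cdkn1b, at -1.56, is the only square (DEG), and the 21 mitotic genes lie between -0.060 and 0.18 with intervals that cross 0.

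Cdkn1b (ENSMUSG00000003031, chr6:134920401-134925513, plus strand) encodes an inhibitor that binds cyclin and kinase complexes and holds cells in G1. It was at 98.9, 46.7, 63.9, 78.2 and 119.2 FPKM in WT replicates 1 to 5. In ERβKO replicates 1 to 4 it was 35.2, 23.9, 20.6 and 29.3 FPKM. The highest ERβKO ovary lay below the lowest WT ovary, and WT replicate 2 was the WT ovary nearest to the ERβKO range. The means were 81.4 ± 28.5 FPKM in WT against 27.3 ± 6.40 FPKM in ERβKO ovaries, for a log2 fold change of -1.56 (standard error 0.24, 95% confidence interval -2.10 to -1.03; adjusted p = 0.0139, edgeR). A two-sided exact permutation test of the FPKM values gave p = 0.0159, the smallest that 5 against 4 ovaries allow. It was run only for members whose genotypes did not overlap, where this value is nearly fixed beforehand, so it adds no separate support. The adjusted p rose to 0.0611 without ERβKO replicate 2 and to 0.0514 without ERβKO replicate 4, with log2 fold changes of -1.50 and -1.57.

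The other 2 inhibitors of the same family did not pass the test. Cdkn1a, a target of p53 that stops the cycle after DNA damage, was at 15.7, 20.9, 14.6, 9.30 and 10.6 FPKM in WT replicates 1 to 5 and at 7.35, 11.5, 13.9 and 8.17 FPKM in ERβKO replicates 1 to 4. The genotypes overlapped, at a log2 fold change of -0.47 (standard error 0.26, 95% confidence interval -1.04 to 0.11) with an adjusted p of 0.351. Cdkn1c, an imprinted inhibitor, was at 4.82 ± 0.577 FPKM in WT against 4.54 ± 0.762 FPKM in ERβKO ovaries, with a log2 fold change of -0.14 (95% confidence interval -0.45 to 0.16). Cdkn1b made up 64.5 to 88.6% of the summed FPKM of the 3 inhibitors in WT ovaries and 53.4 to 73.2% in ERβKO ovaries, so that it led this family in all 9 ovaries.

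**Figure D2:**
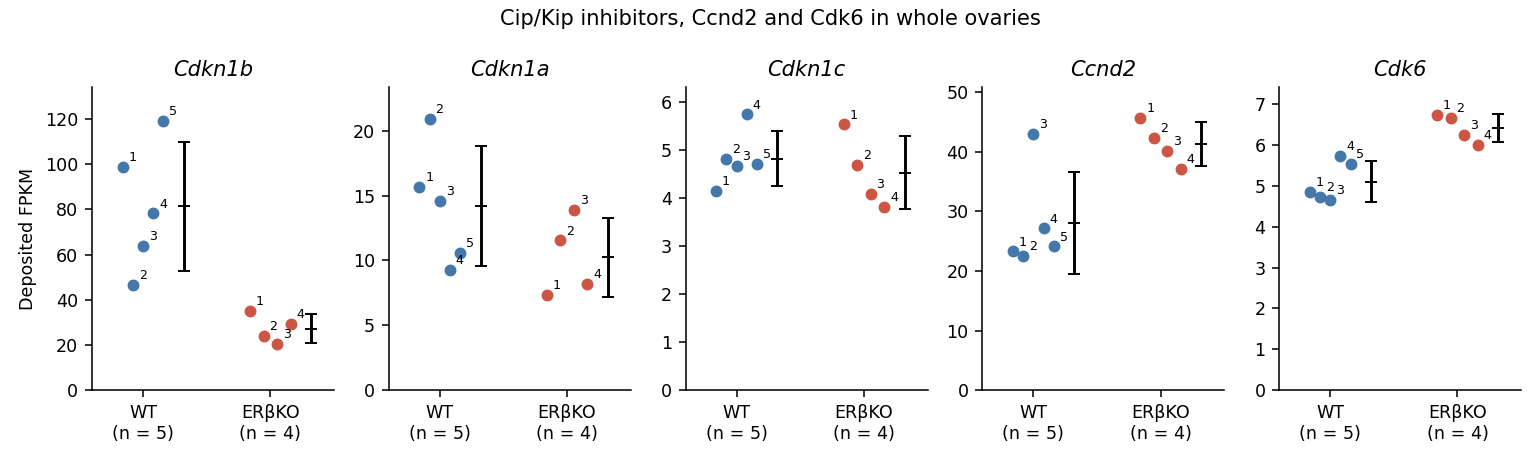
Deposited FPKM of the 3 inhibitors, Ccnd2 and Cdk6 in each ovary (points, with the replicate number) and mean ± SD (bars) for 5 WT and 4 ERβKO ovaries. The ERβKO ovaries lie at 20.6 to 35.2 FPKM for Cdkn1b, below every WT ovary, while WT replicate 3 lies among the ERβKO ovaries for Ccnd2.

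Of the 6 genes within 100 kb of Cdkn1b that passed the filter on low counts, the nearest on its right side and the next one also met the criteria for DEGs, both lower in ERβKO ovaries. Lockd (ENSMUSG00000098318, listed as 1190002F15Rik in the count table, chr6:134929092-134951718, plus strand), a long noncoding RNA 3579 bases beyond the end of Cdkn1b, was at 15.3, 6.52, 10.7, 6.22 and 9.72 FPKM in WT against 4.55, 3.23, 2.76 and 2.43 FPKM in ERβKO ovaries. Its log2 fold change was -1.61 (standard error 0.33) and its adjusted p 0.0372 (edgeR). Lockd, with as few as 22 fragments in a library, met the criteria in 3 of the 9 fits that leave out an ovary (not without WT replicate 1, 3 or 5 or ERβKO replicate 2, 3 or 4), with adjusted p up to 0.125. Apold1 (chr6:134982001-134986836, plus strand), a gene of endothelial cells 56205 bases beyond Cdkn1b, was at 2.24, 1.24, 1.29, 1.54 and 1.59 FPKM in WT against 0.768, 0.563, 0.519 and 0.620 FPKM in ERβKO ovaries. The genotypes did not overlap for either gene, and the log2 fold change of Apold1 was -1.40 (standard error 0.22, adjusted p = 0.0139 in the same test). Apold1 missed the criteria only without ERβKO replicate 2 among those 9 fits (adjusted p = 0.0611). Both genes also missed the criteria in the ovaries with label numbers below 200. These leave out WT replicates 4 and 5, the only ovaries with higher numbers, so that label number and genotype partly coincide.

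Past these 3 neighbours in a row the differences were smaller. Ddx47, 86099 bases to the right, had a log2 fold change of -0.21 (adjusted p = 0.204). On the left side, 2810454H06Rik, Gpr19 and Crebl2 had log2 fold changes of -0.53, -0.26 and 0.047, with adjusted p of 0.468, 0.490 and 0.813. The 3 DEGs lie on the plus strand, as do Ddx47, 2810454H06Rik and Crebl2, so the strand does not set them apart.

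**Figure D3:**
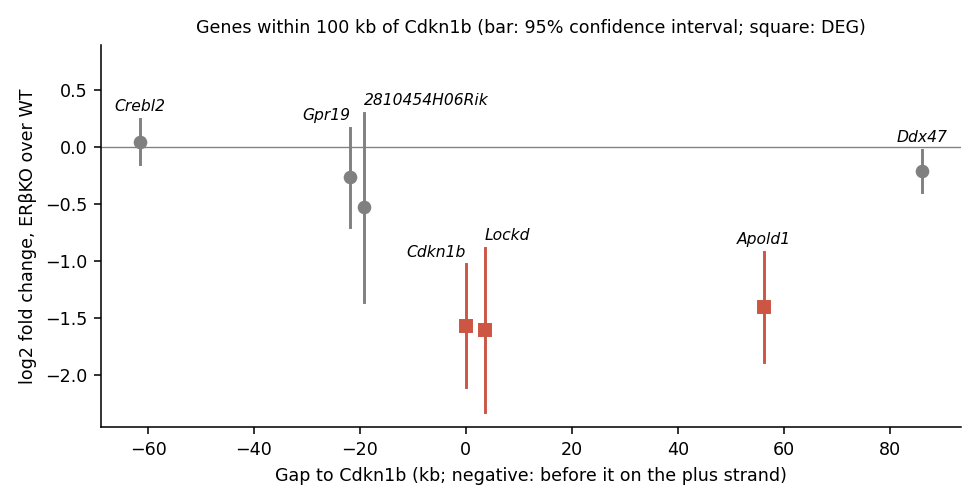
Log2 fold change, ERβKO (n = 4) over WT (n = 5), of Cdkn1b and the 6 tested genes within 100 kb, plotted against their gap to Cdkn1b in kb, with 95% confidence intervals. Cdkn1b, Lockd and Apold1 (squares, DEGs) lie between -1.61 and -1.40, and the other 4 genes between -0.53 and 0.047.

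Among the 8 cyclins and kinases of G1 and S, none met the criteria for DEGs, and their median log2 fold change was 0.063. Ccnd2 (ENSMUSG00000000184, chr6:127125162-127152193, minus strand), the D cyclin that follicle-stimulating hormone raises in granulosa cells, was at 23.3, 22.5, 43.0, 27.1 and 24.1 FPKM in WT replicates 1 to 5. In ERβKO replicates 1 to 4 it was at 45.7, 42.4, 40.1 and 37.1 FPKM. WT replicate 3 lay within the ERβKO range and the other 4 WT ovaries lay below it. The log2 fold change was 0.53 (standard error 0.18, 95% confidence interval 0.13 to 0.93), and the adjusted p from edgeR was 0.148. Without WT replicate 3 it was 0.75 with an adjusted p of 0.0038, and Ccnd2 then met the criteria for DEGs, which 2.14% (354) of the genes tested did in that fit. In the other 8 fits that leave out a single ovary the adjusted p of Ccnd2 ranged from 0.153 to 0.289.

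Cdk6, a kinase partner of the D cyclins, was at 4.85, 4.73, 4.65, 5.73 and 5.53 FPKM in WT against 6.72, 6.65, 6.24 and 6.00 FPKM in ERβKO ovaries. All ERβKO ovaries were above all WT ovaries, by a narrow margin. The log2 fold change was 0.28 (standard error 0.085, adjusted p = 0.111 in edgeR), below the 0.4 of the criteria. The exact two-sided permutation p of the FPKM values was 0.0159, which again follows from the lack of overlap.

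The intervals of the other D cyclins, Cdk4 and Cdk2 all crossed 0. The log2 fold change of Ccnd1 was -0.013 (95% confidence interval -0.31 to 0.28), that of Ccnd3 0.083 (-0.078 to 0.24) and that of Cdk4 -0.090 (-0.23 to 0.056). Cdk4, at 94.0 ± 6.29 FPKM in WT ovaries, had the highest level of the 44 members, while its partner Cdk6 was at 5.10 ± 0.496 FPKM. Ccnd2 made up 44.0, 37.3, 55.0, 44.0 and 43.4% of the summed FPKM of the 3 D cyclins in WT replicates 1 to 5 and 52.2 to 55.3% in ERβKO ovaries, with WT replicate 3 again in the ERβKO range. Cdk2, the kinase of the E cyclins, was at 11.2 ± 1.18 FPKM in WT against 12.8 ± 1.94 FPKM in ERβKO ovaries. Its log2 fold change was 0.16 (95% confidence interval -0.086 to 0.40, adjusted p = 0.457 in edgeR).

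The E cyclins act with Cdk2 at the start of S phase, and Ccne1 had the lowest mean level of the 44 members in both genotypes. It was at 1.74, 1.28, 2.09, 2.18 and 1.68 FPKM in WT against 2.30, 1.61, 0.865 and 0.808 FPKM in ERβKO ovaries. ERβKO replicates 3 and 4 lay below all other ovaries and ERβKO replicate 1 above them, and the log2 fold change of -0.39 had a standard error of 0.25 (adjusted p = 0.429). Ccne2 ranged from 2.45 to 4.75 FPKM in WT and from 1.82 to 3.92 FPKM in ERβKO ovaries, with a log2 fold change of 0.042.

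The ratio of Cdkn1b to Ccnd2, both in FPKM, joins the inhibitor that fell and the cyclin with the largest positive change among the members. It was 4.25, 2.08, 1.48, 2.89 and 4.94 in WT replicates 1 to 5 and 0.771, 0.565, 0.515 and 0.789 in ERβKO replicates 1 to 4. Cdkn1b was thus the higher of the pair in every WT ovary and the lower in every ERβKO ovary. These genes were put side by side after their values were seen, and the ratio is given as a description.

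**Figure D4:**
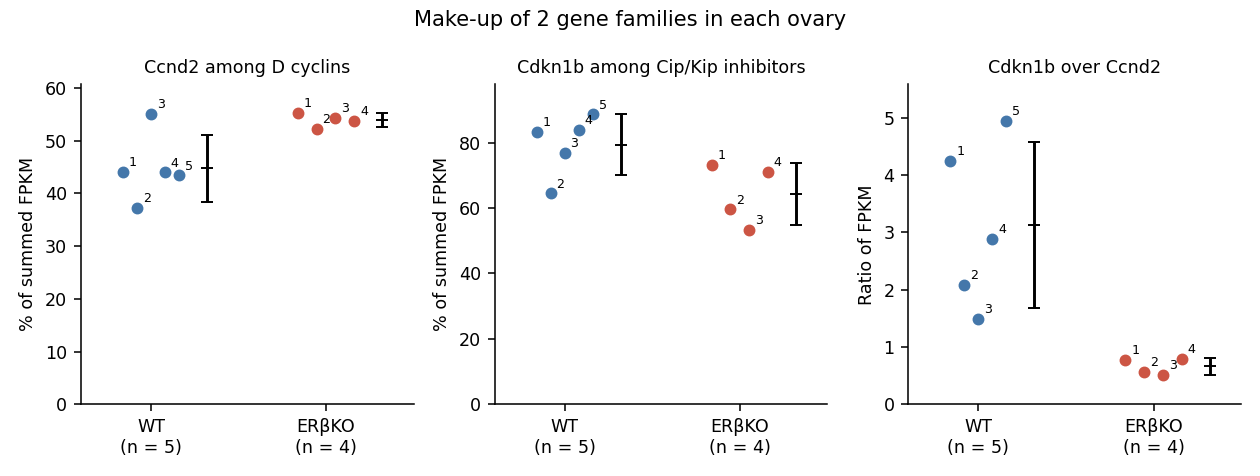
Share of Ccnd2 in the summed FPKM of the D cyclins, share of Cdkn1b in that of the Cip/Kip inhibitors, and ratio of Cdkn1b to Ccnd2, in each of 5 WT and 4 ERβKO ovaries (points) with mean ± SD (bars). The ratio is 1.48 to 4.94 in WT and 0.515 to 0.789 in ERβKO ovaries, and the shares overlap between the genotypes.

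Among the lists of markers of ovarian cell types, only those of granulosa and theca cells held DEGs. Of 10 granulosa markers 9 had a positive log2 fold change and 2 were DEGs, and their summed FPKM was 581 to 728 in WT and 769 to 1042 in ERβKO ovaries. Most of this sum came from a single marker that was not a DEG. Of 10 luteal markers 9 had a negative log2 fold change and none was a DEG, and their summed FPKM was 3133 to 6740 in WT and 2588 to 4076 in ERβKO ovaries. Most of that sum came from 2 of these markers. All 8 oocyte markers were above 0 and none was a DEG, with sums of 36.6 to 117 FPKM in WT against 79.0 to 150 FPKM in ERβKO ovaries. Of 6 theca markers 5 were tested, 4 of them above 0, with a median log2 fold change of 0.12. The only DEG was Aldh1a1, higher in ERβKO ovaries. It made up most of the summed FPKM, which was 465 to 728 in WT and 836 to 1718 in ERβKO ovaries. The 6 endothelial, 5 leukocyte, 6 stromal and 3 erythroid markers tested held no DEG, and the summed FPKM of each list overlapped between the genotypes. All 6 endothelial markers had a negative log2 fold change, with a median of -0.089, and their summed FPKM was 87.4 to 107 in WT and 83.6 to 100.2 in ERβKO ovaries. The study counts some of the granulosa markers and a luteal marker among the direct targets of ERβ, so these sums do not measure cell numbers alone. The part of these markers in the values of Cdkn1b, Apold1 and Ccnd2 was not tested.

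The 21 genes of mitosis and the spindle held no DEG, and none had an unadjusted p under 0.05. Their log2 fold changes ran from -0.060 (Ccna2) to 0.18 (Aurka), with 15 above 0 and a median of 0.028, and their adjusted p were 0.669 or more. The 95% confidence intervals reached down to between -0.60 and -0.18 and up to between 0.37 and 0.69. All 21 were within 0.25 of 0, as were 67.9% of all genes tested.

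Mki67, the gene of the proliferation antigen Ki-67, was at 12.3, 7.05, 19.7, 12.4 and 10.4 FPKM in WT replicates 1 to 5 and at 14.8, 13.0, 9.24 and 14.0 FPKM in ERβKO replicates 1 to 4. The ERβKO ovaries lay inside the WT range, at a log2 fold change of 0.010 (standard error 0.25, adjusted p = 0.985). Top2a, which untangles chromosomes before they part, was the most abundant of the mitotic genes, at 18.2, 11.3, 32.6, 19.3 and 16.4 FPKM in WT against 22.8, 21.5, 14.1 and 21.5 FPKM in ERβKO ovaries. Its log2 fold change was 0.014 (standard error 0.25). In both genes WT replicate 3 was the highest ovary and WT replicate 2 the lowest.

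The cyclins and kinase that start mitosis had the same highest and lowest ovaries. Cdk1 was at 8.59 ± 2.97 FPKM in WT against 8.13 ± 1.81 FPKM in ERβKO ovaries, and its partners Ccnb1, Ccnb2 and Ccna2 had log2 fold changes of 0.028, -0.014 and -0.060. The kinases Plk1, Aurka and Aurkb, which build the spindle and correct its attachments, had log2 fold changes of 0.071, 0.18 and 0.11. Birc5 (survivin), which works with Aurkb, was at 15.7 ± 5.49 FPKM in WT against 15.7 ± 2.19 FPKM in ERβKO ovaries.

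The checkpoint that delays anaphase was represented by Bub1, Bub1b and Mad2l1, with log2 fold changes of 0.024, 0.18 and 0.099. Mad2l1 varied least among the mitotic genes in WT ovaries, from 12.3 to 19.0 FPKM, was at 14.7 to 20.2 FPKM in ERβKO ovaries, and had the narrowest interval of them, -0.18 to 0.37. Cdc20 and Ube2c, which lead to the breakdown of cyclins at the end of mitosis, had log2 fold changes of 0.050 and 0.18. The motor proteins Kif11, Kif20a and Kif23 had log2 fold changes of 0.075, -0.018 and 0.012, and the centromere proteins Cenpa, Cenpe and Cenpf of -0.0085, 0.037 and 0.032.

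The 9 genes of replication and nucleotide supply also held no DEG and none at an unadjusted p under 0.05, with 2 above 0 and 7 below it and a median log2 fold change of -0.090. The helicase subunits Mcm2, Mcm3, Mcm4, Mcm5, Mcm6 and Mcm7 had log2 fold changes of 0.20, -0.13, -0.021, -0.090, 0.0072 and -0.0013. Mcm5 was at 6.65, 4.81, 14.8, 6.72 and 7.51 FPKM in WT against 9.36, 7.37, 6.63 and 8.22 FPKM in ERβKO ovaries. WT replicate 3 stood far above the other WT ovaries in this gene.

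Pcna, the clamp that holds DNA polymerase on its template, was at 36.5 ± 7.60 FPKM in WT against 34.4 ± 3.17 FPKM in ERβKO ovaries. Rrm2, a subunit of the enzyme that makes deoxynucleotides, was at 7.86 ± 3.81 FPKM in WT against 7.55 ± 1.28 FPKM in ERβKO ovaries. Tyms, which makes thymidylate, was at 5.33, 3.81, 11.3, 5.01 and 5.47 FPKM in WT against 4.33, 4.33, 4.28 and 5.23 FPKM in ERβKO ovaries. Its log2 fold change of -0.35 (standard error 0.19, adjusted p = 0.340 in edgeR) was the lowest of the group, and WT replicate 3 stood above all other ovaries. The transcription factors E2f1, Mybl2 and Foxm1 had log2 fold changes of 0.063, 0.16 and 0.22, and the lowest adjusted p of the 3 was 0.564.

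The spread of the mitotic genes was larger within the WT genotype than between the genotypes. WT replicate 3 was the highest WT ovary and ERβKO replicate 3 the lowest ERβKO ovary for all 21 mitotic, all 9 replication and all 3 transcription factor genes, against 23.3% and 37.5% of all genes tested. Over all 9 ovaries, WT replicate 3 was the highest for 19 of the 21 mitotic genes (13.5% of all genes tested) and WT replicate 2 the lowest for 18 (10.0% of all genes tested). The level in WT replicate 3 was 1.29 to 2.89 times that in WT replicate 2 for the mitotic genes, with a median of 2.47. For the replication genes this ratio was 1.59 to 3.08.

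These genes varied together across ovaries. Relative to the mean of the WT ovaries, the median of the 21 mitotic genes was 0.973, 0.625, 1.54, 1.07 and 0.840 in WT replicates 1 to 5 and 1.16, 1.10, 0.782 and 1.13 in ERβKO replicates 1 to 4. The median coefficient of variation of the mitotic genes was 34.5% in WT and 18.0% in ERβKO ovaries, while that of all genes tested was 15.1% and 12.5%. Among the WT ovaries alone, WT replicate 3 was the highest for 4 of the 8 cyclins and kinases of G1 and S and for none of the 3 inhibitors, and WT replicate 2 the lowest for 3 and 1 of them (21.7% of all genes tested). Over all 9 ovaries, WT replicate 3 was the highest for 1 of the 8 cyclins and kinases and for no inhibitor.

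**Figure D5:**
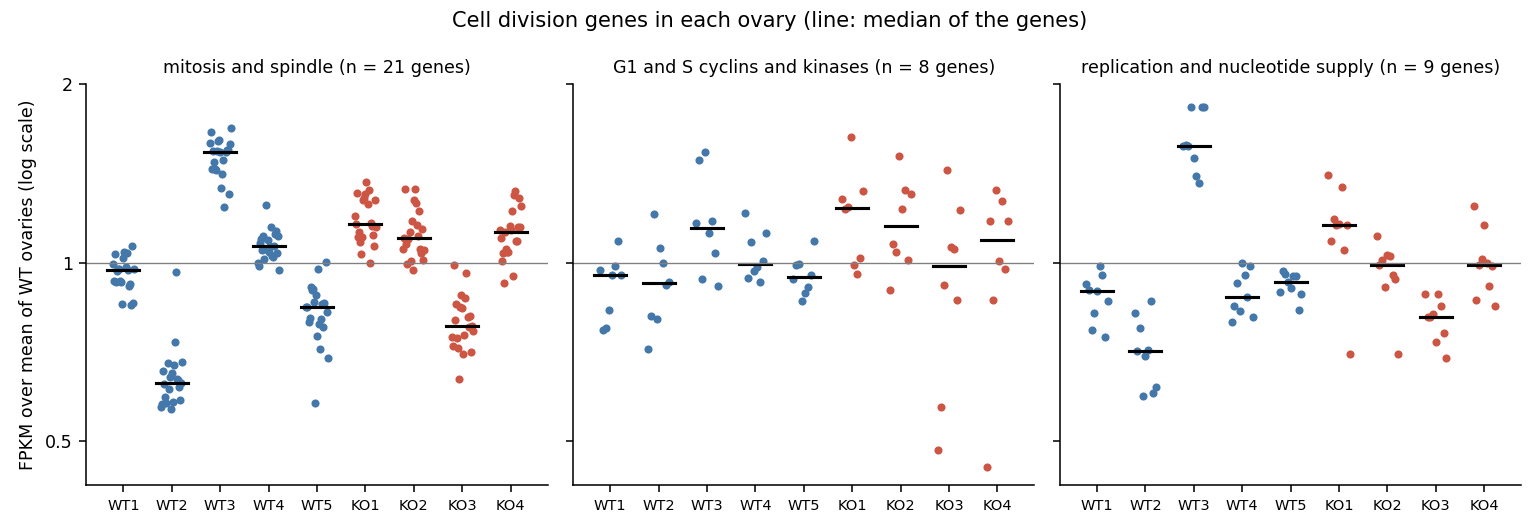
FPKM of each mitotic (21), G1 and S (8) and replication gene (9) in each ovary divided by the gene's mean over the 5 WT ovaries, on a log axis, with a line at the median of the genes. The mitotic medians run from 0.625 (WT replicate 2) to 1.54 (WT replicate 3), and the ERβKO ovaries lie between them at 0.782 to 1.16.

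The sign of the small mitotic differences changed with the ovaries that entered the fit. Without WT replicate 3 all 21 mitotic genes were above 0, with a median log2 fold change of 0.24, and without WT replicate 2 only 4 of them were, with a median of -0.10. Without both, 18 were above 0 with a median of 0.11. The median also fell below 0 without WT replicate 5 (-0.029), ERβKO replicate 1 (-0.031) or ERβKO replicate 4 (-0.011), and was 0.15 without ERβKO replicate 3. None of the mitotic or replication members met the criteria for DEGs in these fits or in the other alternatives, which included DESeq2 and limma.

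WT replicate 3 also held the highest sum of stromal markers, 834 FPKM, followed by WT replicate 2 with 753 FPKM, and the highest sum of oocyte markers among WT ovaries, 117 FPKM. WT replicate 2 had the lowest sum of luteal markers among WT ovaries, 3133 FPKM, whereas by the mean log2 CPM of these markers WT replicate 3 was the lowest (8.53 against 8.63 in WT replicate 2). The part of these markers in the spread of the mitotic genes was not tested.

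Of 108 other genes of the cell cycle, 107 were tested and 2 met the criteria for DEGs, where 1.72% of all genes tested did. At an unadjusted p under 0.05 there were 8, where 19.8% of all genes tested were. Cdkn2c, an inhibitor that binds Cdk4 and Cdk6 and so opposes the D cyclins, was at 15.5, 11.5, 16.7, 13.0 and 10.8 FPKM in WT against 24.3, 19.6, 18.7 and 19.8 FPKM in ERβKO ovaries. All ERβKO ovaries were above all WT ovaries, at a log2 fold change of 0.56 (standard error 0.12, adjusted p = 0.0471 in edgeR). Nek6, a kinase of the mitotic spindle, was at 6.63, 7.93, 4.97, 4.16 and 5.18 FPKM in WT against 3.54, 2.99, 2.41 and 2.70 FPKM in ERβKO ovaries. All ERβKO ovaries were below all WT ovaries, at a log2 fold change of -1.02 (standard error 0.18, adjusted p = 0.0207 in the same test). Cdkn2c met the criteria in 8 of the 19 alternatives, and missed them with the replicate number as a block, in both limma fits and in the ovaries with label numbers below 200. Of the 9 fits that leave out an ovary, Cdkn2c met the criteria in 2, those without WT replicate 2 or 3, with adjusted p of 0.0257 to 0.114 over all 9. Nek6 met them in 5, and missed them without WT replicate 1 or ERβKO replicate 2, 3 or 4, with adjusted p of 0.0118 to 0.0791.

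The genes with the next smallest p in each direction did not pass in edgeR. Fbxw7, which marks cyclin E for breakdown, had a log2 fold change of 0.59 (adjusted p = 0.0769), and Fzr1, an activator of the anaphase-promoting complex, of 0.14 (adjusted p = 0.275). Ccnh, the cyclin of the kinase that activates other cyclin-dependent kinases, and Rpa3, which binds single-stranded DNA, both had log2 fold changes of -0.28 (adjusted p = 0.122 for each). The 39 other mitotic genes had a median log2 fold change of 0.031 and the 32 other replication genes of -0.012, and WT replicate 3 was the highest ovary for 29 and 27 of them, respectively. WT replicate 2 was the lowest ovary for 29 of the 39 mitotic and 17 of the 32 replication genes.

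Exons of another gene on the opposite strand covered part of 15 members, and the strand setting of the counting is not given in the sources used here. They covered 30.7% of the exon bases of Cdkn1c, 29.3% of Kif20a, 23.4% of Ccnd1 and 22.8% of Ube2c, but 7.86% of Ccnd2 and none of Cdkn1b. An annotated pseudogene of Pcna, Pcna-ps2, received 113 fragments over the 9 libraries.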

How the data were processed

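Frozen whole ovaries were the source of RNA, with a library for each of 5 WT and 4 ERβKO mice. According to the methods of the study, the authors made stranded libraries of polyadenylated RNA, sequenced read pairs and mapped them to GRCm38 with STAR. The deposited counts are the authors' raw fragment counts per gene from featureCounts, with no normalization. The deposited FPKM were calculated by the authors with StringTie. The submitters' processing notes also name Trim Galore and bcl2fastq 2.20.0.422. The deposited TPM and coverage values were not used. No replicates were pooled.

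The main test was run in R 4.3.3 on the counts with edgeR 4.0.16 (filterByExpr, TMM, quasi-likelihood test with genotype as factor, Benjamini-Hochberg adjustment). The common biological coefficient of variation was 0.179. DESeq2 1.42.0 and limma 3.58.1 were alternatives, with other normalizations, filters, the replicate number as a block, ovaries left out, and the ovaries whose label number is below 200. Tables were handled in Python 3.11.15 with pandas 2.3.3, NumPy 2.4.6 and SciPy 1.17.1. Standard errors came from the F statistic and the fold change. Overlap of genotypes was judged on log2 CPM with a prior count of 2. Fits of edgeR, with and without the replicate block, of DESeq2 and of limma were tried on simulated counts, drawn independently for each gene. There limma was run on log2 CPM and not on FPKM. The outcome is not used as support here. A gene symbol with several rows was read from the row with the highest summed count. Promoter letters were searched in RefSeq windows.

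The members, the roles, the lists of other cell cycle genes and markers, and the alternatives were chosen with earlier results of these data known. Named were all members, the other cell cycle genes that met the criteria (or had the smallest p, to make 3 in each direction), Esr2, and the genes within 100 kb of a member that met them. Chromatin and staining data were not used here. One of the marker genes chosen is not reported here.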

Additional observations from a re-analysis of the deposited data

Results flagged for a closer look

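In 88 groups of 4 or 5 ovaries (44 genes in 2 genotypes), the highest or lowest ovary stood apart from the others by Dixon's test at the 95% level in 10, where chance gives about 1 in 20. WT replicate 3 stood above the other WT ovaries in Ccnd2 (43.0 FPKM), Mcm2 (12.4 FPKM), Mcm4 (15.4 FPKM), Mcm5 (14.8 FPKM), Pcna (49.9 FPKM) and Tyms (11.3 FPKM). ERβKO replicate 3 stood below the other ERβKO ovaries in Top2a (14.1 FPKM), Ccnb2 (7.42 FPKM) and Mybl2 (2.38 FPKM). ERβKO replicate 4 stood above the other ERβKO ovaries in Tyms (5.23 FPKM). These genes tend to vary together across ovaries, so that the 10 cases are not independent of each other.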

How the results depend on the processing

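Cdkn1b was lower in ERβKO ovaries in all 19 alternatives, with log2 fold changes of -1.83 to -1.36, and met the criteria for DEGs in 16. It missed them in the ovaries with label numbers below 200 (-1.36, adjusted p = 0.0654), and without ERβKO replicate 2 or 4, and the number of cell division genes meeting them was then 0. Leaving out single ovaries gave 0 to 2 members, 3 to 5 members at an unadjusted p under 0.05, and 0 to 3 other cell cycle genes as DEGs. Ccnd2 met the criteria without WT replicate 3 (0.75, adjusted p = 0.0038 in edgeR). It also met them without both WT replicates 2 and 3 (0.70, adjusted p = 0.0019 in edgeR), an alternative chosen after seeing the data. That alternative gave 2 members as DEGs and 6 at an unadjusted p under 0.05. The share of all genes at an unadjusted p under 0.05 is not given for these alternatives, so these counts have no background to be read against. The other cell cycle genes held 2 DEGs in the main comparison, 3 with DESeq2, 1 with the replicate block, with limma at a pseudocount of 0.1 and with label numbers below 200, and 0 with limma at a pseudocount of 1. Over all genes, 800 were DEGs with DESeq2, 191 and 203 with limma at a pseudocount of 1 and 0.1, 155 with the replicate block, 51 with label numbers below 200, 60 to 912 with 1 ovary left out and 1119 without both WT ovaries. With the replicate block the adjusted p of Cdkn1b was 0.0073 and 1 member was a DEG. Deviations of same-numbered ovaries correlated at 0.095, 0.13, -0.043 and -0.011, so the numbers were not taken to pair the mice. Of 33 members whose log2 fold change was under its standard error, 27 changed sign in at least 1 alternative, and their signs are given as values and tallies alone. None of the other 11 did. The causes were not tested.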
